A study of Mus musculus with 6 samples.

Results

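The genes of the constitutive proteasome and its regulators were followed in regulatory T cells of the mouse, a class of CD4 T cell defined by the factor Foxp3 that holds other immune cells in check (Treg cells). Members were all symbols that begin with Psm, a letter from a to g and a digit, other than the immunoproteasome genes Psmb8, Psmb9 and Psmb10, and each symbol was represented by its row with the highest summed count. The rule gave 47 of the 23992 gene symbols in the count table, and 46 of them passed the low-count filter. They comprised 31 core subunits, of which 14 belong to the 20S particle and 17 to the 19S particle, and a remainder of activators, an inhibitor, assembly chaperones and tissue-restricted forms. RNA sequencing was done on 3 libraries of each of 2 groups, called WT and KO here after their labels. WT cells came from CD45.2 Foxp3YFP-Cre/Y mice, and KO cells from mice that carried the same Cre allele and also Crlf2fl/fl, a floxed gene for the TSLP receptor, the receptor chain that binds thymic stromal lymphopoietin. Cre and YFP are driven from the Foxp3 locus in both groups, so deletion is directed to cells that express Foxp3, and the mice are male, with a single X-linked Foxp3 allele. According to the labels, lymph nodes and spleen were pooled and live CD4+YFP+ cells were sorted. The title of the count table names lung instead, and which tissue the counts come from was not settled here. The labels gave no age, and a second description line of the samples named the genotypes the other way round from the titles and the genotype tag, which were used here. They do not say that the libraries of a group came from separate mice, and the spread on which the p-values rest may then be technical.

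The proteasome degrades proteins tagged with ubiquitin. Its 20S core is a barrel of stacked rings: outer rings of alpha subunits form the gate, and inner rings of beta subunits hold the active sites in Psmb5, Psmb6 and Psmb7. The 19S cap binds ubiquitin chains, removes them, and unfolds substrates with a ring of ATPases. In immune cells interferon induces Psmb8, Psmb9 and Psmb10, which replace the constitutive active sites, and PA28, a cap made of Psme1 and Psme2 that opens the gate without ubiquitin recognition and favours the release of peptides for MHC class I. Psme3 forms a nuclear cap (PA28gamma), Psme4 encodes PA200, and Psmf1 encodes the inhibitor PI31.

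Library totals ran from 1439736 counts in WT replicate 2 to 18352401 in KO replicate 3, so a count of 3 corresponded to between 2.05 and 0.157 CPM, the read count scaled to library size. Crlf2 itself had 694, 213 and 1111 reads in WT and 93, 84 and 68 in KO, in the order of the replicates, and fell by 4.16 on the log2 scale (edgeR adjusted p = 0.0047), in the direction of the titles. The 8 Treg and T cell markers were detected in every library and took 0.185% to 0.388% of counts in WT and 0.424% to 0.444% in KO. Markers of other cells were present. The 9 lung epithelial markers took 1.70% to 7.57% of counts in WT and 0.241% to 1.96% in KO, and all 9 had lower fitted values in KO. The 7 erythroid markers took 14.5% of counts in WT replicate 3 and at most 0.686% in the other libraries. The macrophage and monocyte markers, 9 of 10 of which were found in the table, took 0.0495% to 0.750% in WT and 0.270% to 0.288% in KO. B cell markers took at most 0.0288% and CD8 T and NK cell markers at most 0.00995%. Cldn18, Marco and Cd8a were at 0 in at least 1 library, and no marker was at 0 in all of them. In such bulk samples, fewer cells of a type and less RNA per cell cannot be told apart.

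A single member, the PA28 subunit gene Psme2, passed an adjusted p of 0.05 between KO and WT, and it was lower in KO. That is 2.17% of the 46 tested members, beside 1.74% of all 12720 tested genes (0.983% called lower and 0.755% called higher), so the share of members called was near the background. None of the 31 core subunits was called. At an unadjusted p under 0.05 there were 8 members, all lower in KO (17.4%), beside 15.9% of all genes in either direction and 9.13% in the lower direction. In 14 members the 3 KO libraries all lay below the 3 WT libraries (30.4%), beside 11.5% of all genes, and no member showed the opposite separation, which 10.4% of all genes did (22% of all genes separated either way). Across the tested members, 32 log2 fold changes were negative and 14 positive (69.6% negative, beside 54.2% of all tested genes). The median was -0.17 beside -0.04 over all tested genes. The gap narrowed on leaving out KO replicate 2, to -0.08 beside -0.05, and with the epithelial marker share as a covariate, to -0.10 beside -0.04. Without Psme1, Psme2 and Psme2b the median of the remaining 43 tested members was -0.14, with 29 negative values and 0 calls. Scaling moved these medians together: when libraries were scaled to T cell genes, the members' median was -0.43 and that of all genes -0.31, and 45 of the 46 members had negative values, so the positive values given here for single members hold relative to all genes and not under that scaling (Psmg3 stayed above 0). Members were measured with a smaller error than the typical gene, with a median standard error (SE) of 0.155 on the log2 scale beside 0.288.

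**Figure D1:**
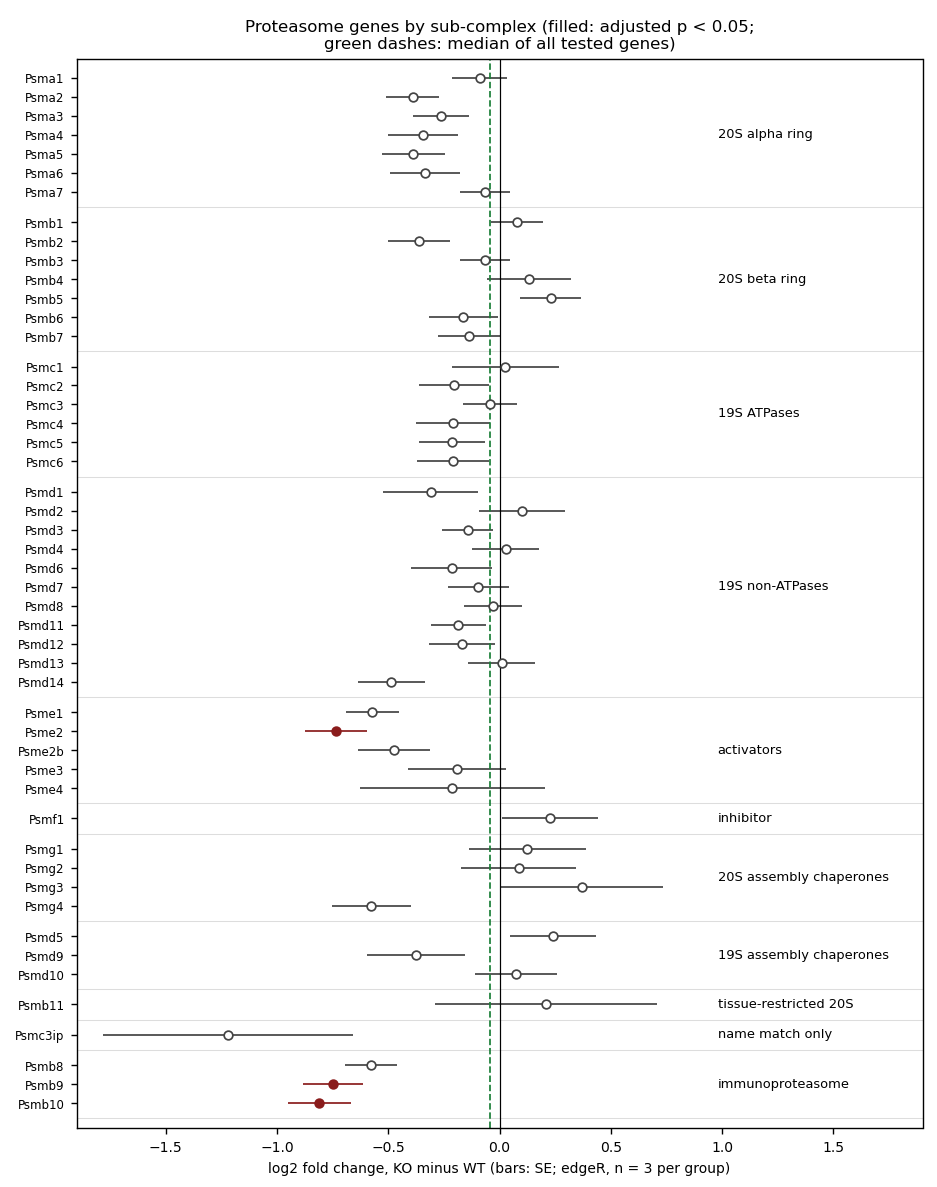
Log2 fold change (x axis, KO minus WT, bars show the SE of the edgeR fit, n = 3 libraries per group) grouped by sub-complex on the y axis. Each tested member is shown, and below them the 3 immunoproteasome genes, which are not members. The dashed line marks the median of all tested genes. Filled points have an adjusted p under 0.05. Psme2 at -0.74 is the only filled member, and the non-members Psmb9 and Psmb10 are filled too. All 7 alpha ring genes and all 5 activator genes lie to the left of 0.

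Of the 2 genes of the PA28 ring, Psme2 fell in KO and Psme1 missed the threshold. Psme2, the beta subunit of the PA28 ring, is at chr14:55587441-55591113 on the minus strand in GRCm38, and Psme1, the alpha subunit, is at chr14:55578123-55581529 on the plus strand, with 5911 bases between them. The 250 bases before the RefSeq start of Psme2 (GRCm38.p6, chr14:55591102-55591351, minus strand, its last bases within the first exon of another annotated transcript) are shown because it is the only member that was called, all in lower case since none of the motifs searched was found in them.
Psme2: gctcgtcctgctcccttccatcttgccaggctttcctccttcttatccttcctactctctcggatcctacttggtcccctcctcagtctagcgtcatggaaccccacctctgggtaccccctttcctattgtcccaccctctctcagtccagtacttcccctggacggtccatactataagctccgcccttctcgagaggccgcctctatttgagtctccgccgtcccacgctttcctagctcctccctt
The 30 bases from the RefSeq start of Psme1 (chr14:55578494-55578523, plus strand) and of the chaperone gene Psmg4 (chr13:34162964-34162993, plus strand) hold a match, in capitals, to GAAA, any 2 bases and GAAA. These are the core letters of the interferon-stimulated response element, read on either strand. The same letters were found before the start of Psmb3, Psmd4 and Psmd9, whose log2 fold changes were -0.06, 0.03 and -0.38. The RefSeq start of Psme1 lies inside the span given above, which begins at base 55578123.
Psme1: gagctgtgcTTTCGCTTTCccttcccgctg
Psmg4: tcggcgcgcgcatctGAAAGTGAAAgagcg
Such a match is a description of the letters, and no binding was measured here.

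Psme2 had 489.6, 415 and 348 CPM in WT replicates 1, 2 and 3 and 250.6, 247.5 and 253.6 CPM in KO replicates 1, 2 and 3. The KO libraries lay within a few CPM of each other and all below WT, whose replicate 1 was the highest. Mean CPM was 417 ± 71.1 (SD, n = 3) in WT and 250.6 ± 3.03 in KO, a fall by 0.74 on the log2 scale (SE 0.14; 95% interval -1.06 to -0.42; adjusted p = 0.0451 in edgeR), or 1.67-fold. Psme1 had 298, 329.8 and 288 CPM in WT and 211, 217 and 187 in KO. Its groups did not overlap either, and its log2 fold change was -0.57 (SE 0.12, 95% interval -0.84 to -0.30), with an edgeR adjusted p of 0.0573, which missed the threshold. The call for Psme2 did not hold when any library other than WT replicate 3 was left out: its edgeR adjusted p was 0.242, 0.142 and 0.238 on dropping KO replicates 1, 2 and 3 in turn, and 0.0972 and 0.101 on dropping WT replicates 1 and 2, with log2 fold changes from -0.60 to -0.85 over all 6 omissions. Without WT replicate 3, the library with the high erythroid share, both PA28 genes were called (edgeR adjusted p = 0.00673 for Psme2 and 0.0331 for Psme1). With the epithelial share of each library added as a covariate, Psme2 was at -0.58 (edgeR adjusted p = 0.183). Over the 19 alternatives run for Psme2 it stayed negative in all and was called in 9, and over the 18 run for Psme1 it stayed negative in all and was called in 4.

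**Figure D2:**
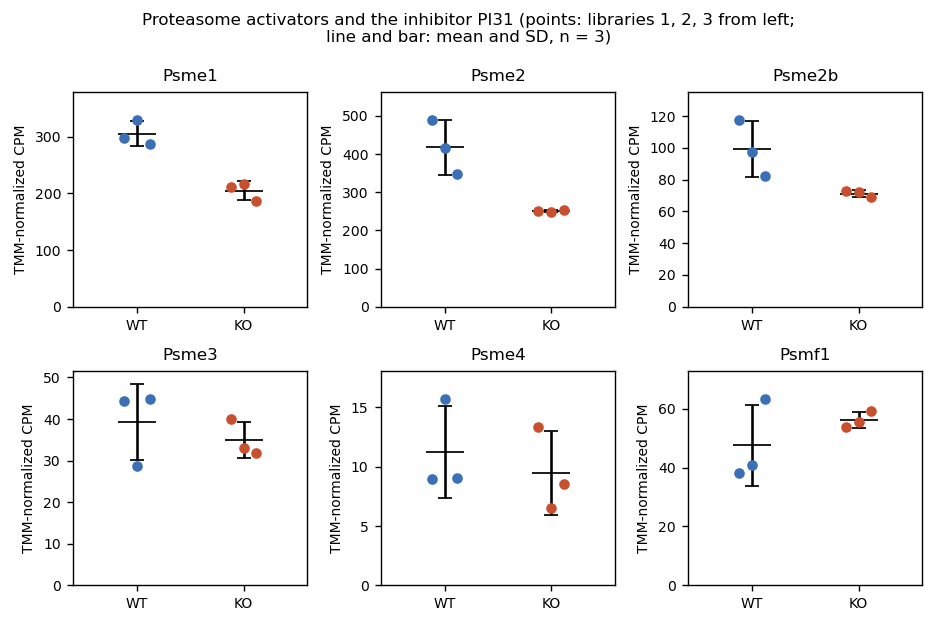
Normalized CPM (y axis, starting at 0) of the activator genes and the inhibitor gene Psmf1 in each library, 1 panel per gene, with points for replicates 1, 2 and 3 from left to right and mean ± SD (n = 3). Psme1, Psme2 and Psme2b show all KO points below all WT points, while the groups overlap for Psme3, Psme4 and Psmf1.

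Psme2b, on chr11:48945354-48946190, is a near-copy of Psme2, and 541 of the 788 stretches of 50 bases in its transcript (68.7%) also occur in a Psme2 transcript, so reads could be split between them and its own level is uncertain. It had 118, 97.2 and 82.6 CPM in WT and 72.8, 72.2 and 68.9 CPM in KO, with a log2 fold change of -0.48 (SE 0.16; adjusted p = 0.197 in edgeR). Its reads were 0.240, 0.234 and 0.238 of those of Psme2 in WT and 0.291, 0.292 and 0.272 in KO, so the ratio of the copies was higher in every KO library (exact two-sided permutation p = 0.1, the smallest that 3 against 3 allows). When the counts of both copies were summed, the log2 fold change was -0.68 with an edgeR adjusted p of 0.0523.

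The other caps and the inhibitor gave no separation between the groups. Psme3 had 44.3, 28.7 and 44.9 CPM in WT and 40.0, 33.1 and 31.7 in KO, with a log2 fold change of -0.19 and a 95% interval of -0.69 to 0.31. Psme4 was low, at 8.96, 15.7 and 9.08 CPM in WT and 13.3, 6.48 and 8.56 in KO. Its log2 fold change was -0.21 with a 95% interval of -1.17 to 0.74. Psmf1 had 38.1, 41.1 and 63.5 CPM in WT and 53.8, 55.4 and 59.3 in KO, with a log2 fold change of 0.23 (SE 0.22; adjusted p = 0.667 in edgeR). Per kilobase of transcript, which allows genes to be compared, mean levels over the 6 libraries were 372 ± 114 CPM per kb for Psme2, 261 ± 58.9 for Psme1, 14.2 ± 2.62 for Psme3 and 1.61 ± 0.536 for Psme4. The order of these 4 genes was the same in each of the 6 libraries.

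None of the 3 constitutive active-site genes was called, while 2 of their 3 inducible counterparts fell in KO. Psmb5, which carries the chymotrypsin-like activity, had 112, 127 and 130.0 CPM in WT and 129, 142 and 160.3 in KO, with a log2 fold change of 0.23 (95% interval -0.08 to 0.54, edgeR adjusted p = 0.470). Psmb6, which carries the caspase-like activity, had 262, 197 and 217 CPM in WT and 209.9, 172 and 223 in KO, with a log2 fold change of -0.16 (95% interval -0.52 to 0.19). Psmb7, which carries the trypsin-like activity, had 65.7, 61.6 and 67.5 CPM in WT and 59.8, 63.0 and 54.9 in KO, with a log2 fold change of -0.14 (95% interval -0.46 to 0.19). The groups of all 3 genes overlapped. Of the inducible genes, Psmb9 fell by 0.75 and Psmb10 by 0.81 on the log2 scale (edgeR adjusted p = 0.0402 and 0.0341), and Psmb8 was at -0.58 (edgeR adjusted p = 0.0536). The calls of Psmb9 and Psmb10 were lost on dropping any library other than WT replicate 3 (edgeR adjusted p from 0.0772 to 0.239), with the epithelial covariate (0.159 for each) and with the replicate number as a block (0.108 and 0.0880), and that of Psmb9 also without robust estimation (0.0509).

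Ratios within a library need no scaling factor, but they compare transcripts of the 2 sets of active sites and depend on the row length of each gene. The ratios were chosen after the values had been seen and are a description of the same libraries. The ratio of Psmb8 to Psmb5, in CPM per kb, was 6.87, 5.87 and 4.69 in WT and 3.56, 3.32 and 3.06 in KO. The ratio of Psmb9 to Psmb6 was 1.48, 2.21 and 1.51 in WT and 1.03, 1.31 and 1.08 in KO. The ratio of Psmb10 to Psmb7 was 4.85, 4.12 and 3.45 in WT and 2.55, 2.36 and 2.89 in KO. In all 3 ratios every KO library lay below every WT library, and per kilobase the inducible transcript was the more abundant of each pair in all 6 libraries. For Psmb9 and Psmb6 that order depended on their row lengths of 806 and 1036 bases. Without the division by length, Psmb9 was the lower in KO replicates 1 (168 against 209.9 CPM) and 3 (189 against 223 CPM). Psme1 stood at 3.46, 4.06 and 3.57 times the median core subunit in WT and 2.93, 2.79 and 2.26 times in KO. Psme2 stood at 6.18, 5.56 and 4.70 times in WT and 3.79, 3.46 and 3.34 times in KO. For these 5 ratios the exact two-sided permutation test gave p = 0.1, the smallest possible, and 0.14 after adjustment over the 7 ratios tested, so none could pass the threshold. The ratio of Psme3 to the core median overlapped between the groups (exact permutation p = 0.9), as did that of Psme2 to Psme1 (exact permutation p = 0.5).

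**Figure D3:**
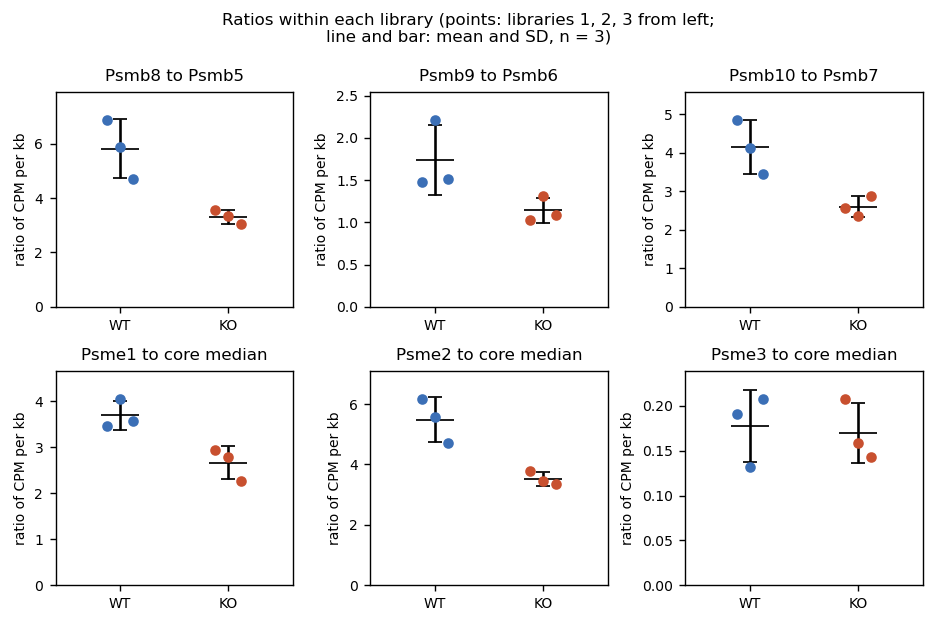
Ratios of CPM per kb within each library (y axis, starting at 0), 1 panel per ratio, with points for replicates 1, 2 and 3 from left to right and mean ± SD (n = 3). Psmb8 to Psmb5 averages 5.81 in WT and 3.31 in KO without overlap, whereas Psme3 to the core median overlaps.

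All 7 genes of the alpha ring, which forms the gate and the docking surface for caps, had negative log2 fold changes. Of all tested genes, 54.2% had a negative value. The median of the ring was -0.34, and 0 of its 7 genes were called. In 5 of them, Psma2, Psma3, Psma4, Psma5 and Psma6, all KO libraries lay below all WT libraries, a separation that 11.5% of all tested genes showed. Psma2 had 146, 145 and 145 CPM in WT and 119, 107 and 108 in KO. Its WT libraries were nearly identical, and its log2 fold change was -0.39 (SE 0.12; adjusted p = 0.154 in edgeR). Psma5 had 81.2, 101 and 89.6 CPM in WT and 67.7, 66.4 and 72.9 in KO, a log2 fold change of -0.39 (edgeR adjusted p = 0.233). Psma6, the lowest of the ring per kilobase, had 59.2, 72.5 and 62.0 CPM in WT and 54.2, 46.3 and 52.1 in KO, a log2 fold change of -0.34 (edgeR adjusted p = 0.344). Psma7, the highest, had 279, 264 and 291 CPM in WT and 272, 243 and 283 in KO, a log2 fold change of -0.06. Psma1 was at -0.09 with overlapping groups.

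The beta ring gave a mixed picture, with 4 negative and 3 positive log2 fold changes, a median of -0.06 and 0 of 7 called. Psmb2, a structural subunit with no active site, had 242, 233 and 205 CPM in WT and 185, 150.5 and 192 in KO. It was the only ring member whose groups did not overlap, at -0.36 (SE 0.14; adjusted p = 0.252 in edgeR). Psmb3, the highest of the ring per kilobase, had 354, 315 and 325 CPM in WT and 306, 299.8 and 346 in KO, a log2 fold change of -0.06. Psmb1 and Psmb4, also without active sites, were at 0.08 and 0.13. Whether the 2 rings differed from each other was not tested.

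The 17 core genes of the 19S cap had 13 negative and 4 positive log2 fold changes (76.5% negative, beside 54.2% of all tested genes). Their median was -0.17, and 0 of the 17 were called. Among the 6 ATPases, Psmc2, Psmc4, Psmc5 and Psmc6 were each at -0.21, Psmc3 was at -0.04 and Psmc1 at 0.03, and all 6 had overlapping groups. Psmc3, the highest ATPase per kilobase, had 245, 207 and 227 CPM in WT and 223, 204 and 234 in KO. Psmc1, the lowest, had 25.9, 41.1 and 37.6 CPM in WT and 42.9, 32.0 and 30.5 in KO, with both groups spanning the same range. Of the 11 non-ATPases, 8 were negative, and 4 had all KO libraries below all WT libraries: Psmd3, Psmd11, Psmd12 and Psmd14 (11.5% of all tested genes did so). Psmd14 encodes the deubiquitinase Rpn11, which removes the ubiquitin chain as the substrate enters. It had 77.2, 92.4 and 74.0 CPM in WT and 55.9, 54.7 and 62.2 in KO, with means of 81.2 ± 9.84 and 57.6 ± 4.03. That log2 fold change of -0.49 (SE 0.15) was the lowest of the 31 core genes, and its edgeR adjusted p of 0.160 did not pass. Psmd4, the ubiquitin receptor Rpn10, had 265, 283 and 214 CPM in WT and 241, 235 and 299 in KO, a log2 fold change of 0.03. Psmd1, the scaffold Rpn2 and the lowest of the cap per kilobase, had 82.4, 47.9 and 64.5 CPM in WT and 61.1, 49.9 and 48.0 in KO, a log2 fold change of -0.31 (SE 0.22) with overlapping groups.

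The assembly chaperones are needed to build the particle and are not part of the finished complex. Psmg1 and Psmg2 form the dimer PAC1-PAC2 that starts the alpha ring. Psmg1 had 20.5, 15.1 and 20.2 CPM in WT and 23.5, 15.8 and 22.3 in KO, a log2 fold change of 0.12. Psmg2 had 13.8, 17.1 and 15.4 CPM in WT and 16.4, 14.3 and 18.1 in KO, a log2 fold change of 0.09. Neither gene separated the groups. Psmg3 and Psmg4 form the dimer PAC3-PAC4, which acts on the same ring, and their fitted values had opposite signs. Psmg4 had 44.1, 37.6 and 41.6 CPM in WT and 27.2, 25.4 and 30.5 in KO, without overlap. Its log2 fold change was -0.58 (SE 0.18), and the edgeR p was 0.0115 before adjustment and 0.160 after it. Psmg3 had 36.4, 21.9 and 15.4 CPM in WT and 27.4, 24.1 and 44.1 in KO, a log2 fold change of 0.37 (SE 0.36; adjusted p = 0.680 in edgeR), with a spread in each group larger than the difference. Of the 19S chaperones, Psmd5 had 55.1, 39.0 and 58.9 CPM in WT and 63.2, 53.6 and 66.6 in KO, a log2 fold change of 0.24 (edgeR adjusted p = 0.599). Psmd9 had 59.4, 52.7 and 37.8 CPM in WT and 37.7, 32.6 and 44.7 in KO, a log2 fold change of -0.38 (edgeR adjusted p = 0.462). Psmd10 was at 0.07, and all 3 of these genes had overlapping groups.

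Core subunits had unequal transcript levels, also within a ring or a part of the cap. Per kilobase, the highest of the 31 core genes, Psmb3 of the 20S particle, was 24.5 times the lowest, Psmd1 of the 19S particle. The inducible genes, which can replace Psmb5, Psmb6 and Psmb7, are not counted in these levels. Within the alpha ring Psma7 had 309 ± 18.96 CPM per kb over the 6 libraries and Psma6 57.9 ± 9.13, 5.33 times apart. Within the beta ring Psmb3 had 444 ± 30.2 and Psmb7 64.1 ± 4.62, 6.93 times apart. Among the ATPases Psmc3 had 136 ± 9.68 and Psmc1 23.5 ± 4.42, 5.82 times apart. Among the non-ATPases Psmd4 had 190.5 ± 23.8 and Psmd1 18.1 ± 4.14, 10.5 times apart. The chaperones ranged from 62.1 ± 14.1 for Psmg4 to 14.96 ± 1.55 for Psmg2 for those of the 20S particle and from 27.5 ± 4.74 for Psmd5 to 17.04 ± 3.94 for Psmd9 for those of the 19S particle. These levels depend on the transcript row taken for each gene, since a length error moves a gene up or down the order in all libraries alike. The median core gene had between 73.7 and 88.3 CPM per kb in the 6 libraries, and the core genes together took 0.426%, 0.441% and 0.377% of counts in WT and 0.438%, 0.408% and 0.454% in KO. The lowest of these shares was in WT replicate 3, the library in which erythroid markers took 14.5% of counts. The median coefficient of variation of the core genes between replicates was 10.6% in WT and 7.99% in KO. It was 16.8% and 10.3% in the 4741 tested genes between 35.0 and 324 mean CPM. Those genes were matched by that range only and not by their levels within it, and the part of read depth was not tested.

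**Figure D4:**
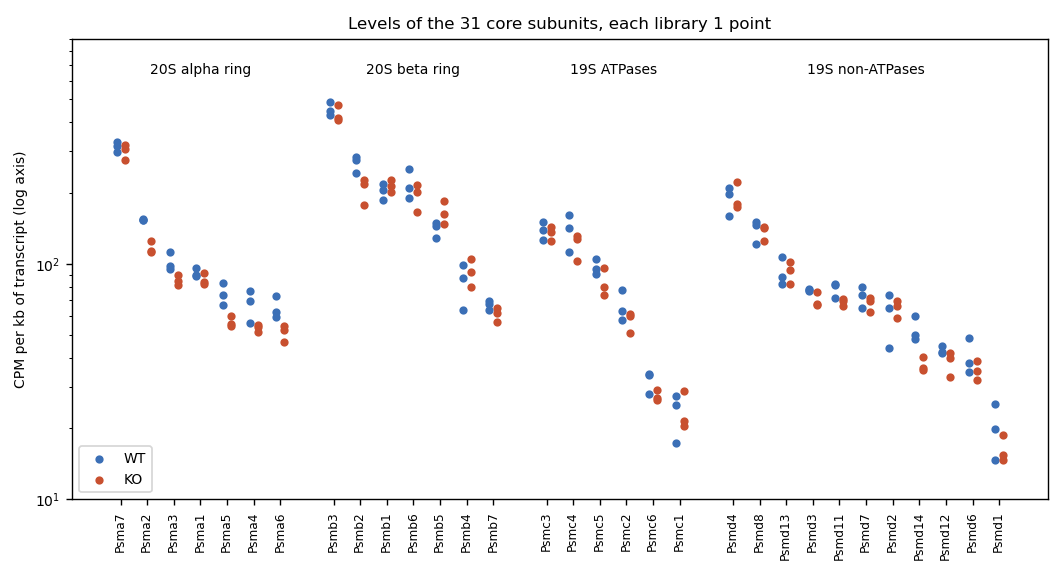
CPM per kb of transcript (log y axis) of the 31 core subunits, ordered within each ring or cap part on the x axis, with 1 point per library coloured by group. Psmb3 is highest at a mean of 444 and Psmd1 lowest at 18.1, and WT and KO points of a gene lie close together compared with the distance between genes.

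The remaining pattern matches are not ubiquitous proteasome genes. Psmb11, the beta5t subunit of the thymic cortex, had 28, 5 and 33 reads in WT and 45, 59 and 54 in KO. Its level of 2.82 to 4.72 CPM lay close to the floor of the shallowest library, and its log2 fold change was 0.21 (SE 0.50). Psma8, an alpha subunit of germ cells, was the member left out by the filter, with 7 reads in WT replicate 3, 10 in KO replicate 1 and 0 in the other 4 libraries. Psmc3ip matches the rule by its symbol only, as its product (HOP2) acts in meiotic recombination. It had 9.63, 11.6 and 4.45 CPM in WT and 2.24, 5.52 and 2.98 in KO, with a log2 fold change of -1.22 and a wide standard error of 0.56 (edgeR adjusted p = 0.338).

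A list of genes that act around the proteasome was chosen by function, with earlier results of these data known. It gave 3 calls among 32 tested (9.375%), beside 1.74% of all tested genes. All 3 were lower in KO, a call that 0.983% of all tested genes had, and the immunoproteasome genes Psmb9 and Psmb10 were among them. Of the 32 log2 fold changes 21 were negative and 11 positive (65.6% negative, beside 54.2% of all tested genes). Their median was -0.12 beside -0.04 over all tested genes. Without the 3 immunoproteasome genes the median of the other 29 was -0.11, and 1 of them was called (3.45%). Nfe2l1, the transcription factor that raises proteasome gene expression when degradation is blocked, had 60.3, 80.7 and 88.0 CPM in WT and 109, 105 and 102 in KO. Every KO library was above every WT library, with a log2 fold change of 0.47 (SE 0.17; adjusted p = 0.221 in edgeR). That value was 0.17 with scaling to T cell genes and 0.28 with the epithelial covariate. Nfe2l2, the oxidative-stress factor NRF2, had 59.8, 51.3 and 88.3 CPM in WT and 42.7, 34.2 and 34.5 in KO. Every KO library was below every WT library, with a log2 fold change of -0.86 (SE 0.23, adjusted p = 0.114 in edgeR), and WT replicate 3 was the highest. Without that library the value was -0.59 (edgeR adjusted p = 0.150). Over the 18 alternatives Nfe2l2 stayed negative and was called in 1, that with DESeq2 (DESeq2 adjusted p = 0.0205). Pomp, the maturation factor of the 20S particle, had 122, 137 and 144 CPM in WT and 114, 109.7 and 118 in KO, a log2 fold change of -0.24 (edgeR adjusted p = 0.405). The macrophage marker share was also highest in WT replicate 3, and its part in these values was not tested.

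Promoter letters were compared for the 39 of 47 members with a RefSeq promoter sequence of 250 bases before and 50 bases after the start (GRCm38.p6). The interferon-stimulated response element core was found, on either strand, in 5 of the 39, Psmb3, Psmd4, Psmd9, Psme1 and Psmg4. It was in 2 of the 25 core genes with a promoter (8.0%), beside 3.99% of the promoters of all 27025 symbols. The log2 fold changes of Psmb3, Psmd4, Psmd9, Psme1 and Psmg4 were -0.06, 0.03, -0.38, -0.57 and -0.58. A link between these values and the letters was not tested. TGACNNNGC, the core letters of the antioxidant response element through which NFE2L1 and NFE2L2 act, was found in 6 of the 39, Psmb5, Psmb6, Psmc6, Psmd12, Psmd9 and Psme4. It was in 4 of the 25 core genes with a promoter (16.0%), beside 13.99% of all promoters. CCAAT was found in 14 members and in 10 of the 25 core genes (40.0%), beside 41.06% of all promoters. The 30 bases around the TGACNNNGC match, in capitals, are shown for Psmb5 (chr14:54618026-54618055, minus strand), Psmb6 (chr11:70525327-70525356, plus strand) and Psmd9 (chr5:123228145-123228174, plus strand), the 3 genes whose match lay nearest before the start on the gene's own strand.
Psmb5: ggacgtgaagttgTGACGTCGCggcgttgc
Psmb6: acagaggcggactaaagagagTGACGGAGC
Psmd9: gtctatctagccggTGACCCCGCccacttc
The log2 fold changes of these 3 genes were 0.23, -0.16 and -0.38, and all had overlapping groups.

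**Figure D5:**
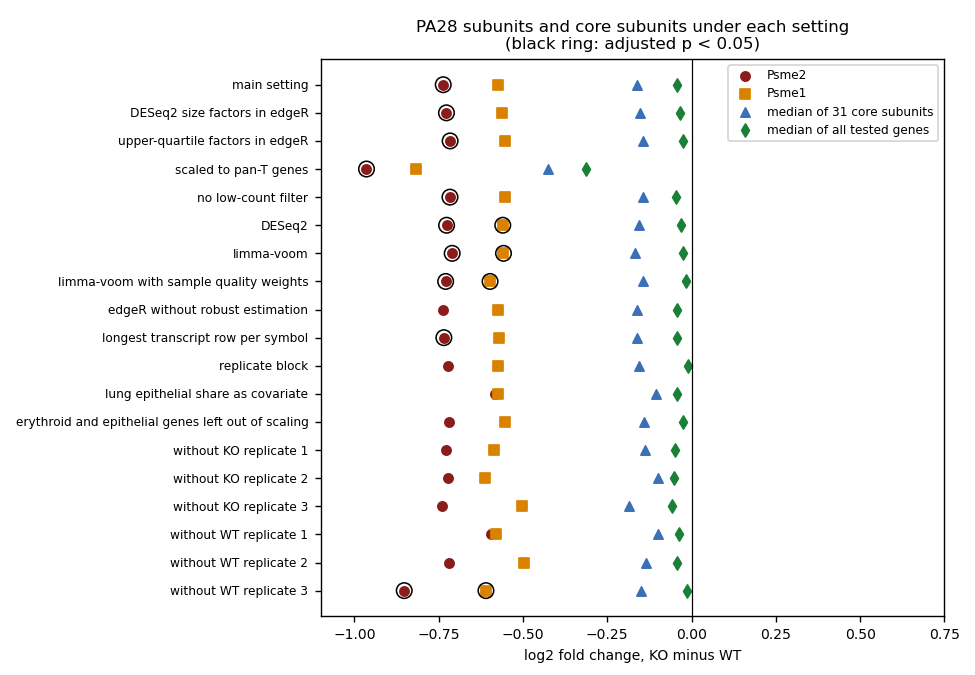
Log2 fold change (x axis, KO minus WT) of Psme1 and Psme2 with the medians over the 31 core subunits and over all tested genes, under each processing alternative (y axis), with a black ring where the adjusted p was under 0.05. All values of both PA28 genes lie left of 0, from -0.96 to -0.50, and the core median lies between -0.42 and -0.10.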

How the data were processed

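The authors deposited a single table of read counts per transcript row for 3 KO and 3 WT libraries; the counts were used as deposited, with 0 unused per-sample columns and 0 rows without a gene name. Its title names lung, while the labels give spleen and lymph nodes. Reads were handled with bcl2fastq, Bowtie2 2.2.6 and TopHat2 2.2.1 on mm10, per the submitters' processing notes; the labels do not state strand or how multiply mapped reads were treated. The table has 31682 rows for 23992 symbols, and the row with the highest summed count stood for each symbol (5 members have several rows).

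Libraries were compared in R 4.3.3 with edgeR 4.0.16 (filterByExpr with a minimum count of 10 and a minimum total of 15, TMM scaling, robust quasi-likelihood F-test), with Benjamini-Hochberg adjustment over 12720 genes and a threshold of 0.05. CPM values are TMM-normalized. Levels of different genes are CPM per kb of the deposited row's length. Intervals are 95% intervals from the fit's standard error. The fit was tested on simulated data.

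The members and lists were chosen with earlier results of these data known. Genes named with values were called members, the highest and lowest per sub-complex by level, the 5 largest changes each way, active-site, activator, inhibitor and chaperone genes, pattern matches that are not subunits, members left out by the filter, and from the pathway list the called genes, Psmb8, Psmb9, Psmb10, Pomp, Nfe2l1 and Nfe2l2 (1 called gene of that list is not reported here); Psma1, Psma5, Psmb1, Psmb2, Psmb4 and the members listed without overlap were named after their values were seen. Positions are from GENCODE M21, and 13 members share exon bases with another gene. Alternatives used DESeq2 1.42.0 and limma 3.58.1.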

Additional observations from a re-analysis of the deposited data

How the results depend on the processing

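The number of genes called, 221 as reported, was 863 with DESeq2, 357 with limma-voom, 352 with limma-voom and sample quality weights, 123 with the replicate block and 8 with a lung epithelial covariate, and from 4 (without KO replicate 1) to 518 (without WT replicate 3) when libraries were left out. The number of members called, 1 as reported, was 2 (Psme1 and Psme2) with DESeq2, limma-voom and limma-voom with sample quality weights, 0 without robust estimation, with the replicate block, with the covariate and with erythroid and epithelial genes left out of the scaling, and from 0 to 2 when libraries were left out. Psme2 then had an edgeR adjusted p of 0.0578, 0.106, 0.183 and 0.0523. The number of pathway genes called, 3 as reported, was 5 with DESeq2, 1 with the replicate block, 0 with the covariate and 0 (dropping KO replicates 1 or 3, or WT replicate 1) to 4 (without WT replicate 3). The labels do not say what the replicate numbers stand for. Deviations from the group means correlated at 0.08, -0.15 and -0.04 between same-numbered libraries. With 3 libraries per group and unequal shares of other cells, these values cannot decide whether the numbers pair the libraries. The members' median was -0.43 with scaling to T cell genes, which left 26 genes called higher and 137 lower, and from -0.160 to -0.0843 (without KO replicate 2) with libraries left out.

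Direction changed under at least 1 alternative for 14 of the 43 genes recomputed singly, none of them called. With scaling to T cell genes the log2 fold changes were -0.187 for Psmb1, -0.144 for Psmb4, -0.20 for Psmd10, -0.0297 for Psmb11, -0.0506 for Psmb5, -0.26 for Psmc1, -0.21 for Psmd4, -0.0533 for Psmd5, -0.10 for Psmf1, -0.16 for Psmg1 and -0.20 for Psmg2. With the covariate they were -0.18 for Psmc1, 0.0216 for Psmc3 and -0.0533 for Psmg2, and with sample quality weights -0.00925 for Psmd4. With libraries left out in turn, the range was -0.104 to 0.00234 for Psma7, -0.148 to 0.16 for Psmc1, -0.0816 to 0.0273 for Psmc3, -0.0853 to 0.129 for Psmd4 and -0.541 to 0.0844 for Psme4. The cause of these changes was not tested.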
